A study of Homo sapiens with 12 samples.

Results

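These results concern 10017 paired coding regions on which disome footprints were set against monosome footprints in cells given 10 µM girolline, out of 76301 regions that could be paired between the disome and monosome tables. A disome footprint is the longer RNA fragment protected by 2 adjoining ribosomes, and a monosome footprint is the fragment protected by a lone one. A region entered when its mean level over the DMSO and 10 µM libraries of a kind reached 10 CPM (CPM being a count scaled to a library total set equal for all libraries) in both kinds of footprint. The rule used levels and not changes. Regions with identical counts in every footprint library were merged, which left 8976 distinct ones, and all counts below refer to these.

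The cells were HEK293T Flp-In, an established line derived from human embryonic kidney, carrying a recombination site into which transgenes can be placed, and labelled wild type. They received DMSO, the solvent, or 10 µM girolline for 2 h. Each kind of footprint had 2 DMSO libraries (DMSO 1 and DMSO 2) and 1 library at 10 µM. A lone library at 1 µM per kind and the RNA-seq libraries of the same series are used where stated. Nothing in the labels states whether DMSO 1 and DMSO 2 were grown as separate cultures, so every p-value measures only the spread between these libraries, which may be technical.

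Ribosomes that stop or slow on an mRNA are run into by the ones behind, and RNase then leaves a fragment covered by both. The disome level therefore depends on how often ribosomes meet and also on how many ribosomes the mRNA carries, whereas the monosome level follows the second quantity more closely. The factor eIF5A, named in the series title as the activity that girolline modulates, helps the ribosome form peptide bonds that are slow by nature, of which runs of proline are the best known, and also helps peptide release at stop codons. Setting disome change against monosome change asks where ribosome adjacency shifted beyond ribosome load.

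The 2 kinds of table name transcripts in different systems, UCSC IDs for disomes and Ensembl IDs for monosomes. Their coding rows were aligned in file order on coding length, which paired 81.2% of the 93916 disome rows and 76.1% of the 100283 monosome rows. Of the rows at 10 CPM or more, 11921 of 15145 disome rows and 12288 of 16665 monosome rows found a partner. Among paired rows, 1904 reached 10 CPM in disomes alone and 2271 in monosomes alone, and these were left out. The pairing was checked on the DMSO libraries, where log2(CPM + 1) of disomes and monosomes had Pearson's r = 0.834 and Spearman's rho = 0.731 across the 10017 regions, and r = 0.930 across all 76301. When each region was set against the monosome value of the next paired row, r dropped to 0.414, although neighbouring rows are often isoforms that share reads, and at 10 rows away it was 0.088. In 62.9% of the regions the coding length occurred once within 50 rows either side in both tables, and r was 0.819 among these. These correlations run across transcripts, which are not independent replicates. In the lower of the 2 kinds, the region nearest above the level rule had a mean of 10.004 CPM and the nearest below it 9.9993 CPM, and 397 lay within 0.5 CPM above it and 400 within 0.5 CPM below.

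**Figure D1:**
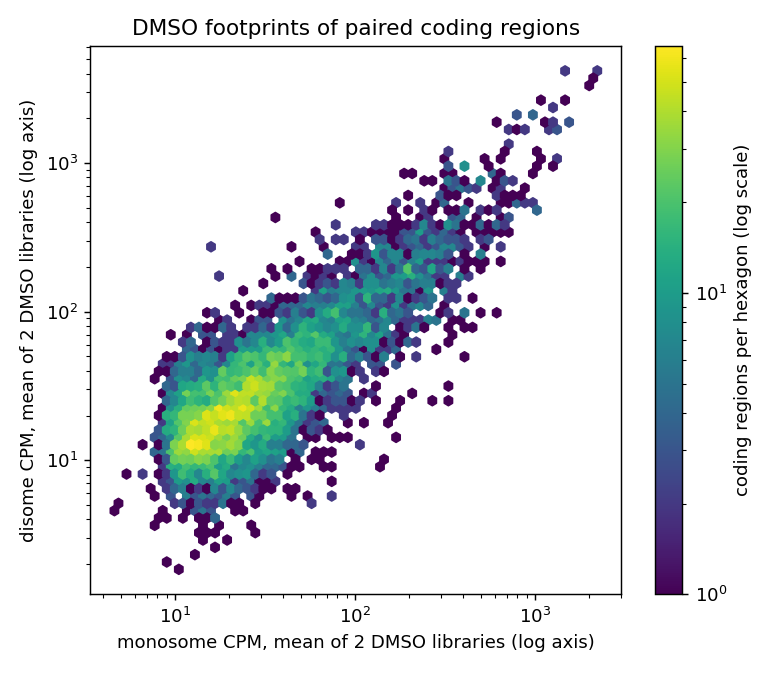
Disome against monosome level of the paired coding regions, each the mean CPM of 2 DMSO libraries on log axes, with hexagons coloured by the number of distinct regions. The regions lie along 1 diagonal band, with Pearson's r = 0.834 on the log2(CPM + 1) scale over all 10017.

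The distinct regions spanned 20 to 7593 codons with a median of 381. Their median counts were 80 and 137 in the disome DMSO libraries and 150 at 10 µM, against 762, 909.5 and 986 in the monosome libraries in the same order. Counting error is thus mostly that of the disomes. Transcript IDs could not be tied to gene names with the tables used here, so coding regions are described by length, starting level and mRNA behaviour, and the identity of the cell line could not be checked on marker genes.

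Disome footprints rose relative to monosomes on 2322 of the 8976 regions and fell relative to them on 1514. The median log2 change was 1.03 among the former and -0.83 among the latter. The test was the interaction of footprint kind and dose in edgeR's quasi-likelihood model of 6 libraries, with Benjamini-Hochberg adjustment over all 42729 distinct pairs tested and a false discovery rate (FDR) of 0.05. Among all pairs tested, 10.5% were called higher and 7.84% lower, 18.3% in all, and among the regions at 10 CPM or more 25.9% and 16.9%, 42.7% in all. Deeper counts make calls easier, so the difference between these shares is not read as a stronger response of well-covered regions. The level rule also let in 624 regions with a DMSO disome mean under 10 CPM, of which 496 were called higher, and 587 with under 10 CPM of disomes at 10 µM, of which 189 were called lower, and those calls follow in part from the rule. Other rules of entry, added after these values were seen, were therefore applied. Regions that reached 10 CPM in DMSO and at 10 µM separately numbered 7530, of which 1818 were called higher and 1250 lower. With the rule on DMSO levels alone it was 1825 and 1489 of 8392, and with a rule on monosomes alone 2885 and 1561 of 10988. Scaling sets rises and falls relative to the other regions of a library, so a shift of disomes shared by every mRNA would not show.

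The changes were also taken against each control singly. Against DMSO 1, 19.8% of regions differed over 2-fold in the disome to monosome ratio, and against DMSO 2 18.4%, whereas DMSO 2 against DMSO 1 gave 0.423%, or 38 regions. Over 2-fold above both DMSO ratios lay 1017 regions, or 11.3%, and over 2-fold below both lay 291, or 3.24%, beside 9.61% and 10.2% of all pairs tested, most of which have few counts. With entry by DMSO levels alone the numbers over 2-fold were 676 above and 279 below, so that the excess of gains was smaller, and over all pairs tested losses were the more numerous.

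The calls rest on the lone 10 µM library of each kind, assumed to vary like the DMSO pairs. They also rest on a spread shared by kinds that differ in it. The coefficient of variation beyond counting error, as edgeR estimates it, was 3.78% within the DMSO pair of monosomes and 10.3% within that of disomes. In the joint fit it was 5.27%. Counting error comes on top of these values. Counts were simulated for 42727 pairs, of which 100 were changed 2-fold and 100 4-fold. There 26 of edgeR's calls were false, or 13.5%, above the threshold it was set to. For limma voom it was 4, or 2.78%, below it. The edgeR calls thus likely hold a larger false share than the threshold allows. True changes were also missed. In the simulation edgeR called 70% of the 2-fold and 97% of the 4-fold changes, and limma voom 49% and 91%. How many calls are false or missed in the data is not known. The simulation changed a far smaller share of pairs than was called there. With limma voom and a weight for each kind, 2120 were called higher and 1214 lower. DESeq2 called 1618 and 560, so that 74.3% of its calls were higher against 60.5% in edgeR, and edgeR called 1637 and 516 without monosome DMSO 1 and 1659 and 590 without monosome DMSO 2.

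Most of the difference came from the disomes. Of the 2322 regions called higher, 2125 (91.5%) also passed the disome test alone as higher, and of the 1514 called lower, 1352 (89.3%) passed it as lower. These tests share their counts with the interaction, so the shares describe what made it up and add no support. In the disome test itself 29.2% of the regions were called higher and 31.1% lower (60.3% in all), beside 14.7% and 13.7% (28.4% in all) of all pairs tested. In the monosome test 14.3% were called higher and 28.8% lower (43.0% in all), beside 14.2% and 13.0% (27.2% in all). Disome log2 changes had an SD of 0.93 across regions and monosome changes 0.36, and 25.6% of regions had a disome change over 2-fold against 1.41% with such a monosome change.

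Several patterns of the 2 footprints made up a call. The most common among the regions called higher, with 1419 of them, was a disome rise with no called monosome change, at median log2 changes of 1.05 in disomes and -0.01 in monosomes. On 468 regions both footprints rose, disomes by a median of 1.71 and monosomes by 0.45. On 238 regions disomes rose while monosomes fell, with medians of 0.75 and -0.33. Among the regions called lower, 673 had a disome fall with no called monosome change, at medians of -0.83 and -0.03. Both footprints fell on 553, with medians of -1.31 and -0.46, and on 126 disomes fell while monosomes rose, with medians of -0.78 and 0.38. Disome and monosome changes had Pearson's r = 0.549 and Spearman's rho = 0.534 across the 8976 regions, which share reads between isoforms. On 991 regions both footprints fell without a called difference between them.

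**Figure D2:**
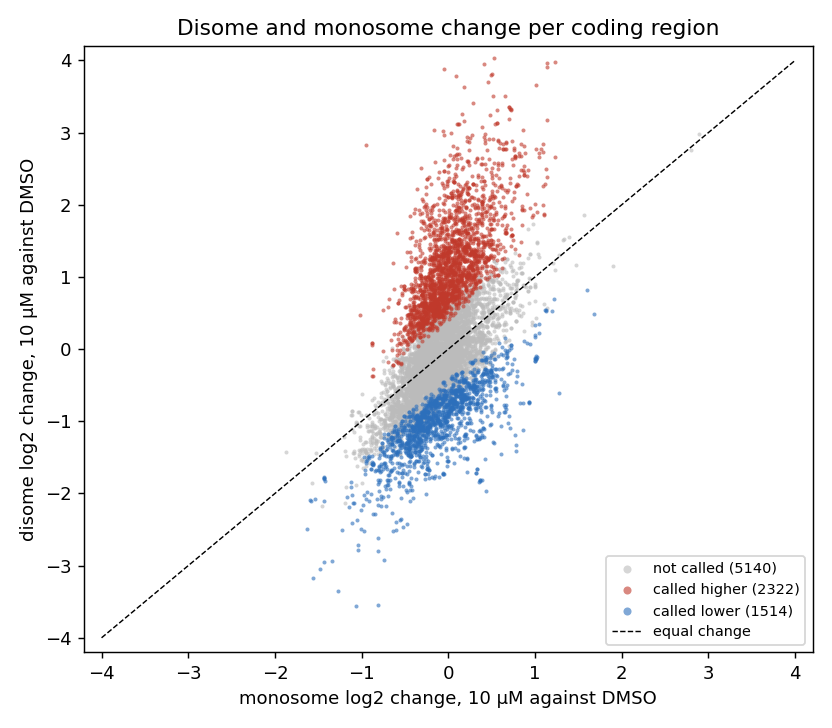
Disome log2 change against monosome log2 change at 10 µM for the 8976 regions, fitted against the DMSO libraries, with equal change as the dashed line. The 2322 regions called higher (red) and the 1514 called lower (blue) spread mainly along the vertical disome axis, and the 5140 not called (grey) lie around the dashed line.

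Coding length divided the regions. Rises outnumbered falls in every class under 500 codons and falls outnumbered rises in both classes above. Under 100 codons disomes rose relative to monosomes on 232 of 487 regions and fell on 59. The next class, which ends below 200 codons, had 838 of 1886 higher and 233 lower. The class from 200 to below 300 codons had 527 of 1325 higher and 138 lower, and that from 300 to below 500 had 500 of 1801 higher and 244 lower. From 500 to below 1000 codons the balance turned, with 209 of 2271 higher and 459 lower. At 1000 codons or more 16 of 1206 rose and 381 fell. Regions under 300 codons made up 68.8% of the rises and 41.2% of all regions, and regions of 500 codons or more 55.5% of the falls and 38.7% of all regions.

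The medians stepped down with length. The median log2 change of disomes relative to monosomes was 0.48 under 100 codons, then 0.39, 0.31, 0.16 and -0.21 in the next classes, and -0.40 at 1000 codons or more, beside -0.01 over all regions. Against DMSO 1 alone the shortest and longest classes had medians of 0.45 and -0.36, and against DMSO 2 alone 0.50 and -0.46. For DMSO 2 against DMSO 1 the 6 medians lay between -0.04 and 0.09. Every class therefore differed from its controls by more than the controls differed from each other. Spearman's rho of coding length with the change was -0.412 across regions, and -0.359 and -0.434 against the single DMSO libraries, while the DMSO pair gave 0.129. With 1 region kept from each block of 10 table rows, to limit isoforms that share reads, the 97 left in the shortest class had 48 higher and 11 lower, and the 551 left in the longest had 11 higher and 158 lower. The medians were then 0.51, 0.57, 0.45, 0.27, -0.13 and -0.35 from short to long, so the shortest class was no longer the highest. With entry by DMSO levels alone they were 0.24, 0.24, 0.23, 0.09, -0.22 and -0.40, so the classes under 300 codons did not stand apart from each other and the rise of the shortest was smaller.

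Disomes carried the length order more than monosomes did. Median disome changes ran from 0.61 in the shortest class to -0.64 in the longest, and median monosome changes from 0.00 to -0.20. Spearman's rho with coding length was -0.422 for the disome change and -0.169 for the monosome change. The longest coding regions stood lowest. Of 259 regions of 2000 codons or more, with a median of -0.58, 132 were called lower. Over 2-fold below both DMSO ratios lay 23 of the 259. They came from 156 blocks of 10 table rows, within which isoforms can share reads. The shortest were mixed. Of 39 regions under 50 codons, 15 rose and 10 fell, with a middle 50% from -0.57 to 1.38.

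**Figure D3:**
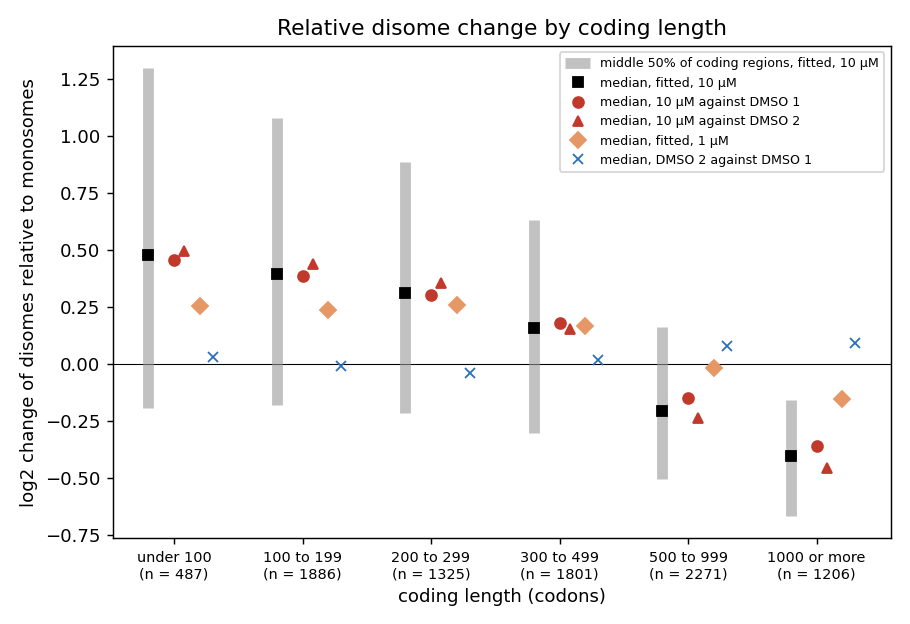
Log2 change of disomes relative to monosomes in 6 coding length classes: medians fitted against the DMSO pair (black squares) with the middle 50% of regions (grey bars), medians against each DMSO library, medians at 1 µM, and DMSO 2 against DMSO 1 (crosses). The 10 µM medians step down from 0.48 to -0.40 while the DMSO crosses stay between -0.04 and 0.09.

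Short and long regions stood apart in abundant and in scarce mRNAs, although the order among the classes under 300 codons did not hold within these groups. Among the lower 50% of regions by RNA-seq level with DMSO, the median change was 0.40 under 100 codons and -0.38 at 1000 or more, and among the upper 50% 0.60 and -0.42. Split instead by mean disome CPM, the medians were 0.64 and -0.34 in the lower 50% and 0.24 and -0.48 in the upper. The level rule used the same mean, so the lower 50% holds the regions just above the rule. The part of the rule in these medians was not tested. Calls were nearly as many on scarce mRNAs as on abundant ones for rises, at 593 of 2244 in the lowest quartile of mRNA level and 699 of 2243 in the highest, but fewer for falls, at 287 and 486. Judged from the lengths in the tables, monosome counts leave out 10 codons of each coding region that disome counts hold, a larger share of a short region, and the part of these codons in the length order was not tested.

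The disome to monosome ratio itself was ordered by length before treatment, in the opposite direction. Ratios are given as log2 of disome CPM over monosome CPM after scaling, so 0 marks an average region and the level says nothing of the absolute share of ribosomes in disomes. Under 100 codons the median ratio was -0.52 in DMSO 1, -0.41 in DMSO 2 and 0.25 at 10 µM. At 1000 codons or more it was 0.22 in DMSO 1, 0.28 in DMSO 2 and -0.11 at 10 µM. Under the main rule of entry, long coding regions thus stood above short ones in both DMSO libraries and below them at 10 µM. The longest class minus the shortest gave 0.74 and 0.69 in the DMSO libraries, 0.23 at 1 µM and -0.35 at 10 µM. Spearman's rho of ratio with length was 0.282 in DMSO 1, 0.341 in DMSO 2, 0.129 at 1 µM and -0.133 at 10 µM. Other rules of entry were not applied to these ratios by length. With DMSO levels alone, the median change under 100 codons was 0.24 in place of 0.48. The ratios of short regions may thus follow in part from the rule.

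Regions that started with few disomes per monosome had positive median changes and those that started with many had negative ones. To keep one measurement from entering both sides, regions were put in quartiles by their ratio in DMSO 1, and their change was taken against DMSO 2. In the quartile with the lowest starting ratio the median change was 0.78, then 0.16 and -0.18, and it was -0.46 in the quartile with the highest. With the libraries exchanged the medians were 0.84, 0.22, -0.12 and -0.46. The level rule adds to this at both ends, because a region low in disomes with DMSO could enter through 10 µM and the reverse. With 10 CPM required in DMSO and at 10 µM separately, the first set of medians became 0.63, 0.17, -0.16 and -0.44, with DMSO levels alone 0.55, 0.06, -0.21 and -0.45, and with monosome levels alone 0.81, 0.29, -0.11 and -0.42. The quartiles kept their levels from one DMSO library to the other, at medians of -1.01 and -0.92 in the lowest and 0.87 and 0.85 in the highest, but stood at -0.14 and 0.42 at 10 µM.

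The ratios lay closer together at 10 µM. Their SD across regions was 0.85 in DMSO 1, 0.82 in DMSO 2, 0.70 at 1 µM and 0.64 at 10 µM, and with entry by DMSO levels alone 0.80, 0.77 and 0.65 in the DMSO libraries and at 10 µM. The span from the 5th to the 95th percentile was 2.77 in DMSO 1 and 2.66 in DMSO 2, then 2.25 and 2.06 under the lower and the higher dose. The disome library at 10 µM had about the depth of DMSO 2, with median counts of 150 and 137. The ranking changed too: the ratios of the DMSO libraries had Pearson's r = 0.932 with each other, but 0.423 and 0.434 with the ratio at 10 µM.

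Under the main rule of entry, length went with the change within quartiles of starting ratio, and starting ratio within length classes. Other rules of entry were not applied to these sets. With DMSO levels alone, the lowest quartile had a median of 0.55 and all regions under 100 codons 0.24. The values of short regions with a low starting ratio may thus follow in part from the rule. Within the lowest quartile of starting ratio, the median change against DMSO 2 was 1.14 for the 226 regions under 100 codons and -0.06 for the 81 of 1000 or more. Within the highest quartile it was -0.18 for 121 of the short and -0.71 for 412 of the long. Of these sets, the short regions of the lowest quartile had the highest median and the long regions of the highest quartile the lowest.

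**Figure D4:**
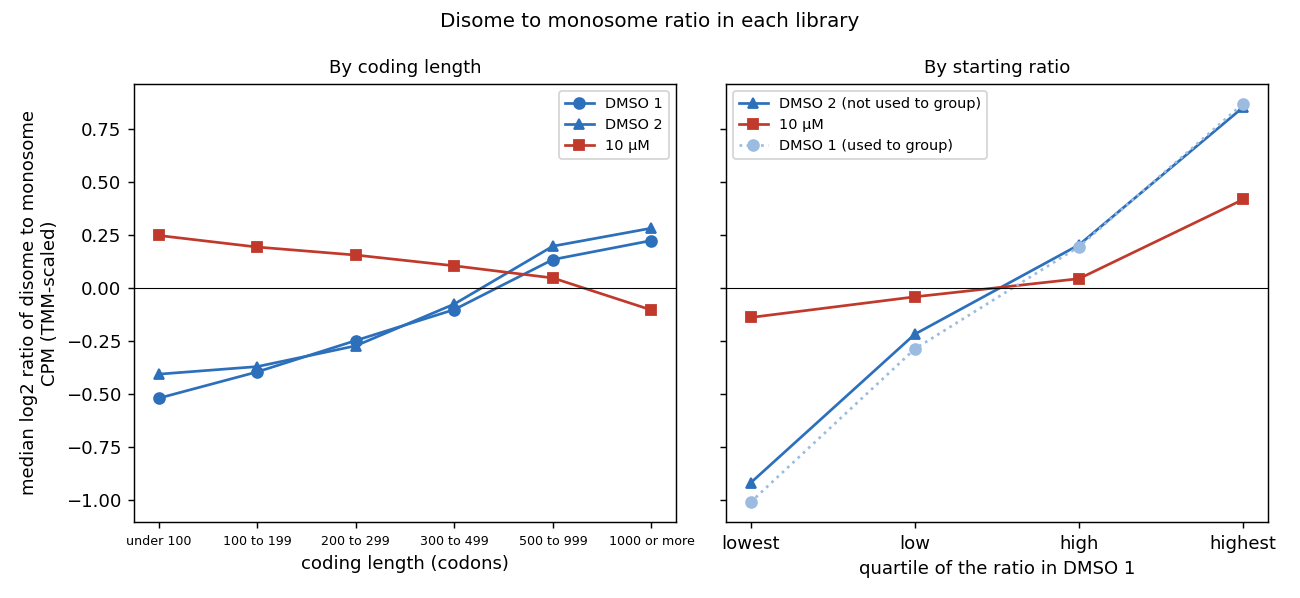
Median log2 ratio of disome to monosome CPM by coding length class (left) and by quartile of the ratio in DMSO 1 (right), for DMSO 1, DMSO 2 and 10 µM. All regions entered by the main rule. By length the DMSO lines climb from -0.52 and -0.41 to 0.22 and 0.28 and the 10 µM line descends from 0.25 to -0.11, and by starting ratio the 10 µM line is flatter than that of DMSO 2.

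The lower dose was tested in the same way, with the same DMSO libraries as controls, so its values are set beside those at 10 µM and are no separate support. At 1 µM disomes rose relative to monosomes on 885 of the 8976 regions and fell on 110, or 9.86% and 1.23% (11.1% in all), where 2.79% and 0.474% (3.26% in all) of all 40540 pairs tested were called. DESeq2 called 287 and 5, and edgeR called 277 and 8 without monosome DMSO 1 and 304 and 15 without monosome DMSO 2, whereas without disome DMSO 1 or DMSO 2 falls numbered 222 and 211. By length the medians at 1 µM were 0.25 under 100 codons, 0.23, 0.26, 0.17 and -0.02 in the next classes, and -0.15 at 1000 or more. Calls in the shortest class were 113 higher and 21 lower, those in the longest 2 higher and 23 lower. Regions called higher at 10 µM had a median log2 change of 0.58 at 1 µM against 1.03 at 10 µM, and those called lower -0.27 against -0.83. Over 2-fold changes at 1 µM made up 6.23% of regions against DMSO 1 and 4.98% against DMSO 2.

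RNA-seq libraries took no part in choosing the regions or in the ratio, and gave the mRNA change at 10 µM for 8973 of them. Few mRNA changes were called: 113 rises and 160 falls by edgeR's test. Of all 56229 mRNAs tested, 0.537% and 0.571% were called in these directions. The test had 1 RNA-seq library at 10 µM, so an mRNA that was not called may still have changed. Of the 2322 regions whose relative disome level rose, 19 had a raised mRNA and 97 a lowered one. Of the 1513 with a lowered relative disome level and a tested mRNA, 47 had a raised mRNA and 18 a lowered one. Regions not called held 47 and 45 among 5138. Median mRNA log2 changes were -0.18, 0.08 and 0.00 in these sets. Across regions the mRNA change had Pearson's r = -0.344 and Spearman's rho = -0.377 with the relative disome change.

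Length moved with both. Median mRNA log2 changes stepped up through the length classes, from -0.36 under 100 codons through -0.18, -0.12, -0.06 and 0.05 to 0.16 in the longest. Of the 160 lowered mRNAs, 79 belonged to regions under 100 codons. The part of mRNA change in the relative disome change was not tested.

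Single regions show how far the ratio moved. The 12 highest and 12 lowest called regions by log2 change were taken, 1 per block of 10 table rows. The same sign against each DMSO number was also required, but all 3836 called regions had it, so this removed none. The 12 highest spanned 70 to 279 codons, 9 of them under 200, with log2 changes up to 3.93 and a median of 2.91. At 1 µM their log2 changes were 1.22 to 2.35. At 10 µM their disome log2 changes were 2.51 to 3.97, and the monosome test called 6 of them higher and 1 lower. The 12 lowest spanned 26 to 2134 codons, with 5 under 200 and 5 of 1000 or more, and log2 changes of -1.80 to -2.73. At 1 µM their log2 changes were -1.33 to -0.49. At 10 µM their disome log2 changes were -3.55 to -1.28, and the monosome test called 8 of them higher and 4 lower. Of the 12 highest, 5 had a DMSO disome mean under 10 CPM and entered only through the 10 µM library, and of the 12 lowest 3 had under 10 CPM at 10 µM and entered only through DMSO, so their sizes depend on the level rule. Of the 12 highest 2 regions, and of the 12 lowest 4, lay in adjoining blocks, where isoforms can share reads. The first 2 each way follow by ID.

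The region highest in relative disome change, uc002fgy.3 (paired with ENST00000570259.1), has 77 codons. Disomes stood at 11.97 CPM in DMSO 1 and 11.45 in DMSO 2, against 58.0 for the lower dose and 169.7 for the higher. Its monosome level was 32.3, 31.4, 33.2 and 32.3 CPM in the same order. Disomes thus multiplied over flat monosomes, provided that the pairing holds. The region was aligned in a stretch of only 2 consecutive rows. Its coding length did not occur just once within 50 rows either side in both tables. The disome and monosome rows may therefore belong to different transcripts. Relative to monosomes the log2 change came to 3.93 (SE 0.20; edgeR adjusted p = 4.04e-33), and its mRNA had a log2 change of -0.21 with adjusted p = 0.791 in edgeR.

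The next, uc001poy.4 (paired with ENST00000611665.4), has 238 codons, rests on few DMSO reads and is one of the 5 that entered only through 10 µM. It was aligned in a stretch of 50 consecutive rows. Its coding length, however, did not occur just once within 50 rows either side in both tables. Here too the disome and monosome rows may belong to different transcripts. Disome counts were 6 in DMSO 1, 10 in DMSO 2, 34 under the lower dose and 155 under the higher. Monosome counts were 253, 332, 225 and 514. Disome levels were 1.94 CPM in each DMSO library and 26.9 at 10 µM, while monosome levels went from 8.64 and 9.52 to 13.5 CPM. The relative log2 change came to 3.31 (SE 0.35; edgeR adjusted p = 1.78e-13), and both disomes (3.81) and monosomes (0.50) passed their own tests as higher.

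The lowest, uc061qzr.1 (paired with ENST00000409729.1), is also short, at 48 codons, and entered only through DMSO. It was aligned in a stretch of only 3 consecutive rows. Disomes stood at 45.9 CPM in DMSO 1 and 41.3 in DMSO 2, against 16.2 for the lower dose and 3.64 for the higher. Monosomes in the same order stood at 51.3, 43.4, 35.4 and 28.2 CPM. Both footprints stood below both controls at each dose, disomes further so. The relative log2 change came to -2.73 (SE 0.31; edgeR adjusted p = 3.13e-12), and its mRNA fell by 1.00 on the log2 scale with adjusted p = 0.00973 by edgeR's test.

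The second lowest, uc001wym.4 (paired with ENST00000382041.7), is long, at 2091 codons. In DMSO 1 and DMSO 2 disomes stood at 51.4 and 73.4 CPM and monosomes at 12.3 and 11.4, so the DMSO libraries differed in disomes. Each kind is scaled to its own library totals, so these levels do not rank disomes against monosomes. In counts, disomes were 159 and 378 and monosomes 361 and 398. At 1 µM the levels were 40.2 and 11.4 CPM, and at 10 µM 17.7 and 15.9, with 102 disome and 607 monosome counts at 10 µM. The relative log2 change came to -2.20 (SE 0.22; edgeR adjusted p = 1.55e-14), where disomes fell by 1.84 and monosomes rose by 0.36. At 1 µM it was -0.53, with adjusted p = 0.206 in edgeR.

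**Figure D5:**
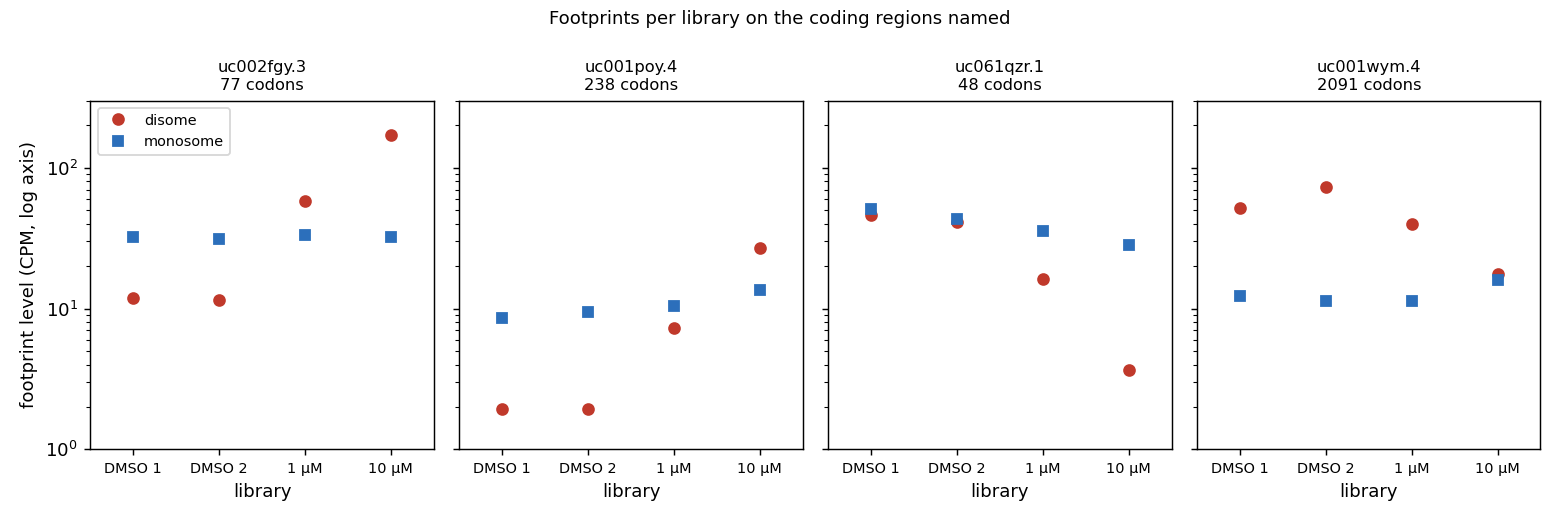
Disome (circles) and monosome (squares) levels in CPM on a shared log axis in the libraries DMSO 1, DMSO 2, 1 µM and 10 µM for the 4 regions named by ID. Disomes climb to 169.7 CPM over flat monosomes on uc002fgy.3 and drop to 3.64 CPM on uc061qzr.1. On uc001wym.4 they come down from 51.4 and 73.4 CPM with DMSO to 17.7 CPM at 10 µM. Each kind is scaled to its own library totals, so the heights of circles and squares do not rank disomes against monosomes.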

How the data were processed

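Per the labels, the series holds 12 libraries, of which the 6 DMSO and 10 µM footprint libraries carry the main comparison. The authors deposited raw read counts per transcript, with no normalization. The submitters' processing notes name build hg38, CASAVA 1.8 and STAR 2.7.0a without giving their roles. How transcripts were counted, under which annotation, and what became of multiply mapping reads is not given in the sources used here. Counts appear to be given to every isoform that holds a read, so neighbouring rows are not independent.

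Total counts ran from 29278822 to 38074691 in the 3 monosome libraries and from 3091715 to 5769026 in the 3 disome libraries. Coding lengths were taken as codons, with 10 added in monosome tables, and coding rows were aligned by GNU diff as a longest common subsequence. Pairs with identical counts were merged, and 42729 passed edgeR's filterByExpr. They were fitted with edgeR 4.0.16 in R 4.3.3 (TMM over 6 libraries, 4 groups, 2 residual degrees of freedom, FDR 0.05). The spread of each pair was drawn toward one estimated over all pairs, with a weight of 100.4 prior degrees of freedom. The p-values therefore rest mostly on that pooled spread. Ratios per library used scaled counts with 0.5 added. DESeq2 1.42.0 and limma 3.58.1 served as alternatives, and the script was tested on simulated data, where edgeR made more false calls than its threshold allows. The mRNA change came from a fit of the 4 RNA-seq libraries, and the 1 µM interaction from a fit of its own.

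The regions, length classes and blocks were chosen with earlier results of these data known. Named regions were those called with the same sign against each DMSO number, the 12 highest and 12 lowest, 1 per block of 10 rows (that with the highest mean CPM). Planned gene lists, marker genes and protein features were not analysed here, because the tables used do not tie the IDs to genes.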

Additional observations from a re-analysis of the deposited data

How the results depend on the processing

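Of the 10 µM counts, those called fell outside 1.5 times the main 3836 (2322 higher, 1514 lower) with DESeq2 (2178, 560 of them lower), at a mean of 20 CPM or more (2376, as 1490 and 886), with 1 pair per block (1466, as 935 and 531) and in runs of 10 or more aligned rows (2207, as 1329 and 878). The last 3 hold fewer regions, at 4906, 3494 and 5182. Leaving out 1 DMSO library gave 2153 to 4282 calls, 1637 to 2491 higher and 516 to 1791 lower. Other scalings shifted the median region from -0.01 to at most 0.12, with the 1 µM libraries added, where 71.3% of calls were higher, and to -0.09 with only these regions fitted, where 52.5% were. At 1 µM the 885 and 110 calls became 287 and 5 with DESeq2 and 234 and 26 with 1 pair per block, and 277 to 1153 and 8 to 222 with 1 DMSO library left out. The cause was not tested. The longest minus the shortest class stood at -0.88, and -0.99 in runs of 10 or more. The DMSO numbers share only a number: with them as a replicate block 3383 were called, and the DMSO differences of disomes and monosomes correlated at r = 0.079 across regions. The 4 regions named by ID kept direction and call in every alternative that held them. For uc002fgy.3 the log2 change ran from 3.86 with only these regions fitted to 4.06 with the 1 µM libraries added. The adjusted p-values of the 4 regions differed by many orders of magnitude between alternatives, so those printed hold for the main fit alone.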

Other observations

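In some regions monosomes passed their own test and disomes did not, with both contributing to the difference. On 152 of the regions called higher, disomes passed no test of their own and monosomes fell, with median log2 changes of 0.27 and -0.42. On 133 of those called lower, disomes passed no test and monosomes rose, with medians of -0.28 and 0.51 and a median length of 402 codons. On 7 regions called lower both footprints rose, by medians of 0.54 in disomes and 1.12 in monosomes.

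The regions came from 3513 blocks of 10 table rows. Rises were found in 1127 blocks and falls in 792, and 104 blocks held both. Where a block held 2 or more regions, as in 2309, the median range of the log2 change within it was 0.26, against an SD of 0.79 across all regions. Neighbouring rows share reads, which by itself brings their values together.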
